A study of Mus musculus with 9 samples.

Results

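The known YAP target genes, widely used as readouts of YAP activity, were followed through the cell classes of mouse livers in which YAP was switched on. They were Ctgf, Cyr61, Ankrd1, Amotl1, Amotl2, Ajuba, Axl, Crim1 and F3, taken by name from a published signature of YAP targets, and they make up 9 of the 27998 genes in the count table. YAP is the transcriptional coactivator held out of the nucleus by the kinases of the Hippo pathway. It has no DNA-binding domain and reaches most of its sites through the TEAD transcription factors. In the normal adult liver its activity is known to be high in the cells of the bile ducts and low in hepatocytes, and forced activity in hepatocytes drives liver growth and dedifferentiation. The targets include secreted matrix proteins, cytoskeletal adaptors that bind or restrain YAP itself, and proteins of the cell surface.

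The 9 libraries hold liver cells of C57BL/6 mice, all carrying the ROSA26-rtTA-IRES-EGFP allele. WT mice had no tetYAP transgene and ate doxycycline food for 7 days (2 libraries), whereas tetYAP mice ate it for 3 days (YAP3d, 4 libraries) or 7 days (YAP7d, 3 libraries). The study describes the rtTA allele as released by Cre under the albumin promoter, which is active in hepatocytes and other epithelium of that lineage, so that endothelial and blood cells of these mice are not the cells in which the transgene was meant to be induced. The transgene encodes YAP mutated at an inhibitory phosphorylation site, ages are not given in the labels, and whether transgene RNA was counted as Yap1 is not given in the sources used here. Tissue was digested enzymatically by a protocol for cells other than hepatocytes, and transcripts were counted by droplet-based 3' single-cell RNA-seq as unique molecular identifiers (UMIs). The labels number the replicates and do not say that they are separate mice, so that p-values measure the spread between these libraries.

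The table held 8562 cells with 293 to 2554 cells and 1314878 to 25056881 UMIs per library. A minimum of 200 genes per cell kept 8527. Clusters were named by fixed markers and are called after the cell they resemble: 49 biliary-like, 115 hepatocyte-like, 1948 endothelial-like and 2889 myeloid-like cells (macrophage-like, monocyte-like, dendritic-like and neutrophil-like together). The targets were left out of the genes used for clustering. Each library had 7 to 11 of the 11 biliary markers above 0 in its biliary-like cells, 9 to 12 of the 12 hepatocyte markers in its hepatocyte-like cells and all 12 endothelial markers in its endothelial-like cells. Hepatocyte-like cells were few in WT, with 2 cells in replicate 1 and 1 cell in replicate 2. Of all cell barcodes, 46 occurred in more than 1 library, at most 7 of them in any pair of libraries. Levels are UMIs per 1000000 UMIs of the class (CPM), without scaling to transcript length, and are compared between classes or groups for each gene and not between genes.

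The sequence around the start sites was not used to choose the targets, and no searched motif was common to all of them. Windows of 300 bases, 250 before and 50 from the transcription start, were taken from RefSeq on GRCm38.p6, where 8 of the 9 genes had a window and Ctgf had none. The TEAD core motif GGAATG, searched on both strands and therefore also as CATTCC, occurred in 6 of the 8, in Cyr61, Ankrd1, Amotl2, Ajuba, Axl and Crim1, against 14.7% of 32851 windows of all genes. The AP-1 motif TGANTCA, where N is any base, was found on either strand only in F3 among the 8, against 7.81% of all windows. No match of one motif overlapped a match of the other. All 9 targets are annotated as protein-coding genes, and those without a printed window lie at chr10:24595442-24598683 (Ctgf), chr9:14541966-14662974 (Amotl1), chr7:25756500-25788924 (Axl) and chr17:78200233-78376592 (Crim1). A match describes letters in the window and not a bound site. The windows of 5 targets whose levels are described below are printed 5' to 3' on the coding strand, with the motif in capitals, to show the spacing of the matches. Cyr61 (chr3:145649936-145650235, minus strand) has its match 103 bases before the start, and Amotl2 (chr9:102717554-102717853, plus strand) 65 bases before it. Ankrd1 (chr19:36119795-36120094, minus strand) and Ajuba (chr14:54577612-54577911, minus strand) have 2 matches each, and F3 (chr3:121723287-121723586, plus strand) has 2 AP-1 matches.
Cyr61: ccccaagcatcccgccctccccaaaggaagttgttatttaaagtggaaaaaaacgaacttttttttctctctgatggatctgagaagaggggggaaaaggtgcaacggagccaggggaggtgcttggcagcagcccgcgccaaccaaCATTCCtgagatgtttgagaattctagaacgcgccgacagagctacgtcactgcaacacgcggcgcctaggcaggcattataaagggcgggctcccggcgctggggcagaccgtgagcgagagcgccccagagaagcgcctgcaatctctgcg
Ankrd1: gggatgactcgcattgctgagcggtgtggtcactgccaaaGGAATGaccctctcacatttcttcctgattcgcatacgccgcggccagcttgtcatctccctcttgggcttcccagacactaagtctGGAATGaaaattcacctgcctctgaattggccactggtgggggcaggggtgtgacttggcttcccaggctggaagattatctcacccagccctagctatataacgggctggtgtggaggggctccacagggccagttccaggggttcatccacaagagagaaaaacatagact
Amotl2: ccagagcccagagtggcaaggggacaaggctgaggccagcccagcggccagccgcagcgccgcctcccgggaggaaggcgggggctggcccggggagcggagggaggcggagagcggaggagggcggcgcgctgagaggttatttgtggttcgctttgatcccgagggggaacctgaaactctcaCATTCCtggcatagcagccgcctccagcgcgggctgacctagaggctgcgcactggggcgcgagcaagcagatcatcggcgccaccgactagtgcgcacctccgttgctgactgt
Ajuba: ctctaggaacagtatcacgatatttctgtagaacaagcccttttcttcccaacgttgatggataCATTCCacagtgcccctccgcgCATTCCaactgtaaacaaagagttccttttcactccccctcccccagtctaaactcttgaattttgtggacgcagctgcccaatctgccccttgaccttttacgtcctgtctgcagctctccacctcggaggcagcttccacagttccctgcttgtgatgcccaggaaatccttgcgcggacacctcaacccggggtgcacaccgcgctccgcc
F3: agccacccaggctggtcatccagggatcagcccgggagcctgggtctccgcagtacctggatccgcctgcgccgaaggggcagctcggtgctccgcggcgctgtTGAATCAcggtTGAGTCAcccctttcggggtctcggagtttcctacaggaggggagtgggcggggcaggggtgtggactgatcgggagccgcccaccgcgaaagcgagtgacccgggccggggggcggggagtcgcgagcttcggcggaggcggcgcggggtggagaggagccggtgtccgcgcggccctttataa

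The targets did not share a cell class. Ankrd1 lay almost wholly in biliary-like cells, the motins and Crim1 lay mainly in endothelial-like cells, Axl lay mainly in macrophage-like cells, and the other targets were spread over several classes. Biliary-like cells gave 0.720% of all UMIs, but 95.6% of the 338 UMIs of Ankrd1, a nuclear ankyrin repeat protein, 49.3% of the 978 UMIs of Cyr61 and 43.2% of the 162 UMIs of Ctgf, both secreted matricellular proteins. The same cells gave 33.9% of the 115 UMIs of F3, which encodes tissue factor, the initiator of coagulation, and 23.6% of the 165 UMIs of Ajuba, a LIM-domain adaptor that binds the kinase LATS. Ctgf and Cyr61 were shared with endothelial-like cells, which gave 47.5% of the Ctgf UMIs, more than biliary-like cells, and 35.4% of the Cyr61 UMIs. For Ctgf that order turned in YAP7d. WT, YAP3d and YAP7d had 29, 36 and 12 Ctgf UMIs in endothelial-like and 7, 15 and 48 in biliary-like cells. Myeloid-like cells, with 56.0% of all UMIs, gave 38.3% of the F3 UMIs and 22.4% of the Ajuba UMIs. Hepatocyte-like cells gave as many of the Ajuba UMIs, 22.4%, from 1.18% of all UMIs, and the 23 stellate or fibroblast-like cells gave 18.3% of the F3 UMIs from 0.310% of all UMIs. Endothelial-like cells gave 14.6% of all UMIs, but 91.9% of the 2448 UMIs of Amotl1 and 84.7% of the 974 UMIs of Amotl2, 2 motin proteins of cell junctions that bind YAP and hold it in the cytoplasm. They also gave 69.2% of the 1906 UMIs of Crim1, a transmembrane protein that binds BMP ligands. Macrophage-like cells gave 28.5% of all UMIs and 83.6% of the 5554 UMIs of Axl, the receptor tyrosine kinase for Gas6.

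**Figure D1:**
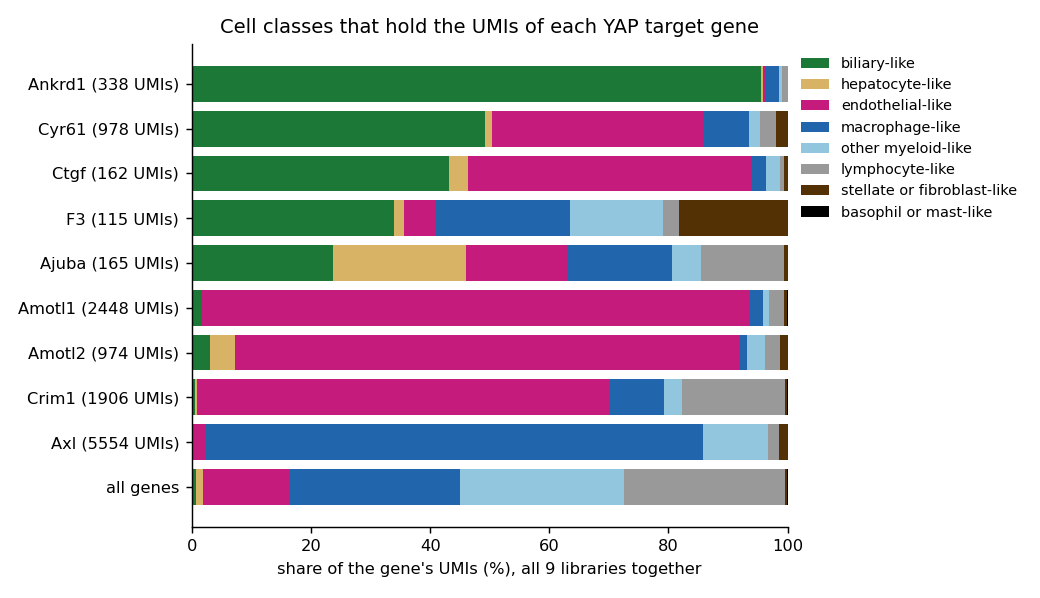
Share of each target's UMIs (%) held by each cell class, over all 9 libraries, with the share of all UMIs for reference. Ankrd1 lies almost wholly in biliary-like cells (95.6%), Amotl1 in endothelial-like cells (91.9%) and Axl in macrophage-like cells (83.6%).

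Inside the same libraries, the endothelial-like and myeloid-like levels of 6 of the 9 targets differed, as did those of 33% of the 17895 genes seen in either class. All 9 libraries had at least 10 cells of both classes, and the difference in log2(CPM + 1) was tested with an exact two-sided sign-flip permutation test, adjusted over all these genes (smallest possible unadjusted p 0.00391). Amotl1 averaged 222 CPM in endothelial-like and 3.72 CPM in myeloid-like cells, a log2 difference of 5.57 (SD 0.66, n = 9; exact permutation, adjusted p 0.0174), with the endothelial-like level higher in 9 of 9 libraries. For Amotl2 the log2 difference was 5.20 (SD 1.08), for Crim1 3.88 (SD 0.86) and for Cyr61 2.68 (SD 1.37), each higher in 9 of 9 libraries with the same p. Ctgf differed by 2.36 (SD 1.77, n = 9; exact permutation, adjusted p 0.0473), with 7 of 9 libraries higher in endothelial-like cells, and lost its call when any library but YAP7d replicate 2 was left out. Axl had the opposite sign, -3.35 (SD 0.69), with 14.7 CPM against 144 CPM and the myeloid-like level higher in 9 of 9 libraries (exact permutation, adjusted p 0.0174). Ajuba, F3 and Ankrd1, all low in both classes, did not pass the test (exact permutation, adjusted p 0.661, 0.37 and 0.246).

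The order of classes was read over libraries with at least 10 cells of a class. Axl averaged 323.76 CPM in macrophage-like cells (SD 77.1, n = 9), whose lowest library, at 237.8 CPM, lay above the highest monocyte-like library, at 69.5 CPM. Monocyte-like cells at 35.9 CPM (SD 18.4, n = 6) and conventional dendritic-like cells at 32.3 CPM (SD 26.1, n = 9) did not differ beyond their spread. The 23 stellate-like or fibroblast-like cells, too few for replicates, had 393 CPM of Axl, 107 CPM of F3 and 97.0 CPM of Cyr61. Axl was seen in 20 of them, F3 in 7 and Cyr61 in 5. In YAP3d replicate 4, 2 cells gave 15 of the 21 F3 UMIs and 1 cell gave 11 of the 19 Cyr61 UMIs. Crim1 averaged 131.7 CPM in endothelial-like cells (SD 41.5, n = 9), all above the NK-cell-like range of 13.2 to 65.0 CPM, and NK-cell-like (39.6 CPM, SD 18.1) and T-cell-like cells (24.8 CPM, SD 7.69) overlapped. T-cell-like and NK-cell-like cells held 207 and 95 Crim1 UMIs, and there were 9.44 Crim1 UMIs for each Amotl1 UMI in them, against 0.586 in endothelial-like cells. Lymphocyte-like cells, which give a level of background for the other targets, had 0.0586 CPM of Ctgf, 1.58 of Cyr61, 0.176 of Ankrd1, 3.57 of Amotl1, 1.41 of Amotl2, 1.35 of Ajuba, 6.45 of Axl and 0.176 of F3.

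Biliary-like cells carried the classical targets in every group, WT included. Ankrd1 had at least 1 UMI in 33 of the 49 cells, Cyr61 in 37, F3 in 25, Amotl1 in 24, Ajuba in 21, Ctgf in 16 and Amotl2 in 15, at a median of 8083 UMIs per cell. In 3481 lymphocyte-like cells, at a median of 4203 UMIs, Ankrd1 was seen in 3 cells, Cyr61 in 27, Ctgf in 1, F3 in 3 and Ajuba in 23. The bile duct markers Epcam and Spp1 were detected in 49 of 49 biliary-like cells, Krt19 in 43 and Sox9, itself a duct and progenitor transcription factor, in 39. Of the biliary-like cells, 12 held all of Ctgf, Cyr61 and Ankrd1, 19 held 2 of them, 12 held 1 and 6 held none. Few cells held much of each level, with 97 of the 323 Ankrd1 UMIs, 94 of the 482 Cyr61 UMIs and 31 of the 70 Ctgf UMIs in the highest cell for each gene.

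By library, Ankrd1 in biliary-like cells had 0 UMIs in WT replicate 1 (3 cells) and 566 CPM in WT replicate 2 (14 cells). It had 362, 227, 148 and 866 CPM in YAP3d replicates 1 to 4 and 552, 3771 and 289 CPM in YAP7d replicates 1 to 3. The groups overlapped, and the highest value came from the 2 cells of YAP7d replicate 2. Cyr61 had 348 and 1056 CPM in WT, 559, 227, 98.8 and 849 CPM in YAP3d and 934, 1655 and 1562 CPM in YAP7d. Its WT and YAP7d ranges overlapped. Ctgf had 0 and 59.1 CPM in WT, 98.6, 0, 0 and 106 CPM in YAP3d and 127, 1270 and 108 CPM in YAP7d, where the lowest YAP7d library lay just above the highest of the others. Only WT replicate 2 and YAP3d replicate 4 had at least 10 biliary-like cells, so that no test between groups was made.

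Pooled by group, with intervals that cover counting error only, Ankrd1 stood at 528 CPM in WT (exact Poisson 95% interval 409 to 670), 672 CPM in YAP3d (554 to 808) and 892 CPM in YAP7d (752 to 1051). Cyr61 stood at 1008 CPM (841 to 1198), 690 CPM (570 to 827) and 1485 CPM (1302 to 1686), with the YAP3d interval below that of WT and the YAP7d interval above it. Ctgf stood at 55.1 CPM (22.2 to 114), 89.2 CPM (49.9 to 147) and 299 CPM (221 to 397). These are sums over 17, 22 and 10 cells, and cells of a library are not replicates. In YAP7d, the 2 cells of replicate 2 gave 98 of 143 Ankrd1 UMIs and 33 of 48 Ctgf UMIs. Without that library Ankrd1 in YAP7d stood at 335 CPM (244 to 448), below WT, and Ctgf at 112 CPM (62.5 to 184), while Cyr61 stood at 1452 CPM. Without YAP7d replicate 3 the levels were 2240 CPM for Ankrd1 and 727 CPM for Ctgf. Without YAP3d replicate 4 the YAP3d levels were 272 CPM for Ankrd1, 363 CPM for Cyr61 and 54.5 CPM for Ctgf, and without WT replicate 2 the WT levels were 0, 348 and 0 CPM from 3 cells. Immediate early genes, which are known to rise during tissue digestion, as Cyr61 and Ctgf can, summed to 9384 and 12326 CPM in the WT libraries, 7308 to 14771 CPM in YAP3d and 6542 to 9339 CPM in YAP7d, with 10 to 13 of 13 genes above 0. Hepatocyte markers in biliary-like cells summed to 6953 and 7762 CPM in WT, 6179 to 8443 CPM in YAP3d and 2848 to 13966 CPM in YAP7d. In hepatocyte-like cells they summed to 11057 to 36343 CPM in YAP3d and 18935 to 29120 CPM in YAP7d. In endothelial-like cells they summed to 175 to 184 CPM in YAP3d and 72.3 to 113 CPM in YAP7d. The part of either in the levels was not tested.

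**Figure D2:**
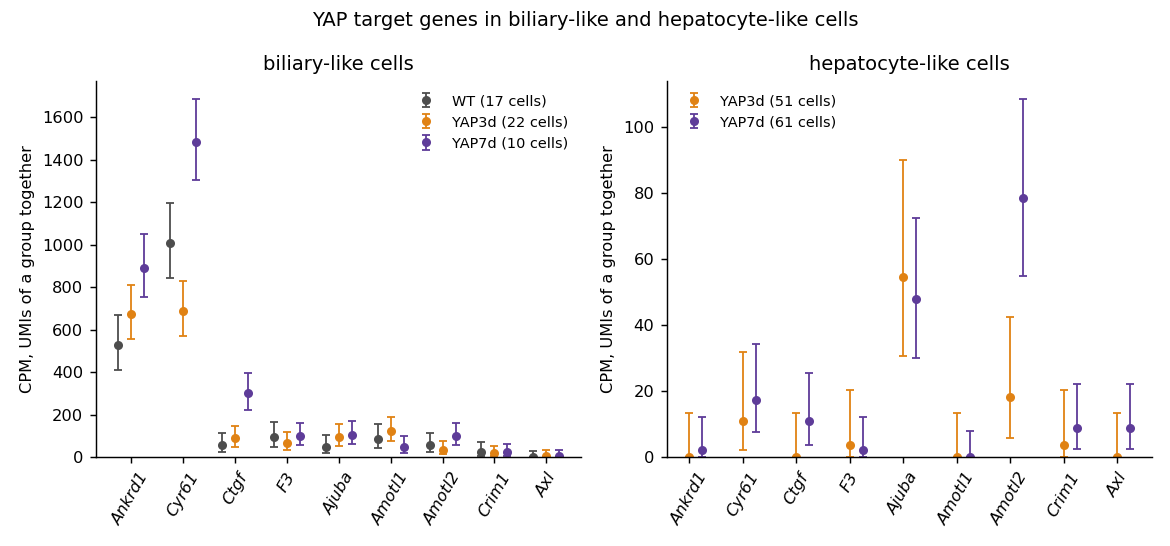
Pooled levels (CPM) of targets in biliary-like and hepatocyte-like cells by group, with exact Poisson 95% intervals that cover counting error only, and WT hepatocyte-like cells left out (3 cells). Ctgf in biliary-like cells is at 55.1 CPM in WT and at 299 CPM in YAP7d (112 CPM without the 2 cells of replicate 2), and Amotl2 in hepatocyte-like cells is at 18.2 CPM in YAP3d (4.46 CPM without replicate 1) and at 78.3 CPM in YAP7d (43.1 CPM without replicate 1).

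Hepatocyte-like cells, where the transgene is meant to be expressed, held Yap1 with 1 and 0 UMIs in the WT libraries, 1, 6, 1 and 6 UMIs in YAP3d replicates 1 to 4 and 15, 11 and 19 UMIs in YAP7d. In CPM the YAP7d values were 73.3, 87.2 and 147.3, the YAP3d values 19.7, 80.5, 22.2 and 57.3 and the WT values 77.1 (the 1 UMI) and 0, so that the groups overlapped. The pooled level was 50.9 CPM in YAP3d and 97.9 CPM in YAP7d. Yap1 did not pass the filter on low counts. Without that filter YAP7d exceeded YAP3d by 0.98 on the log2 scale (SE 0.56, adjusted p 0.748 by edgeR), which did not pass.

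Of the targets, hepatocyte-like cells held mainly the junction adaptors. Amotl2 was seen in 23 of 115 cells and Ajuba in 26, against 24 and 23 of 3481 lymphocyte-like cells, at medians of 4365 and 4203 UMIs per cell. Amotl2 had 0 UMIs in both WT libraries, 4, 0, 1 and 0 UMIs in YAP3d replicates 1 to 4 and 25, 8 and 3 UMIs in YAP7d replicates 1 to 3. In CPM that is 78.8, 0, 22.2 and 0 in YAP3d and 122, 63.4 and 23.3 in YAP7d. The groups overlapped through the 9 cells of YAP3d replicate 1, a library under the minimum of 10 cells. Amotl2 was found in 3 of 51 YAP3d cells and 20 of 61 YAP7d cells, with pooled levels of 18.2 CPM (exact Poisson 95% interval 5.90 to 42.4) and 78.3 CPM (54.8 to 108). Thinned to 1500 UMIs a cell, which left out 8 YAP3d cells, the shares were 2.60% and 10.7%. The pooled levels rest on few libraries: YAP3d stood at 4.46 CPM without replicate 1 and at 29.4 CPM without replicate 4, and YAP7d at 43.1 CPM without replicate 1.

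Between YAP7d and YAP3d, 53 of 1713 genes passed in hepatocyte-like cells (3.09%), and none of the 9 targets had enough counts to be tested. That count ran from 0 to 187 when single libraries were left out. In a fit without the filter, 8 of the 9 targets were tested, beside 11500 genes of which 1.48% passed, with a median of 0.31. With single libraries left out, it called 0 (without YAP7d replicate 1) to 213 genes (without YAP3d replicate 2). With none left out, Amotl2 alone of the targets passed, at 3.85 on the log2 scale (SE 0.996, adjusted p 0.0112 by edgeR). That call was lost when YAP3d replicate 1 was added (2.04, SE 0.70, adjusted p 0.169). It was lost also without YAP3d replicate 2 (3.28, adjusted p 0.0979), without YAP3d replicate 4 (3.12, adjusted p 0.257) and without YAP7d replicate 1 (2.99, adjusted p 0.688). It was kept without YAP3d replicate 3 (6.27, adjusted p 0.00454), YAP7d replicate 2 (3.90, adjusted p 0.0299) or YAP7d replicate 3 (4.21, adjusted p 0.00489). Leaving out cells with 2 or more endothelial marker UMIs took YAP3d replicate 4 under 10 cells and so out of the fit, with 5 libraries left, and gave 3.10 (adjusted p 0.290), near the value without that library alone. Ajuba gave 0.27 (adjusted p 0.908) in the fit without the filter, and its sign turned in 4 of 8 alternatives (lowest -0.69, without YAP7d replicate 1). Its CPM values were 118, 67.1, 66.6 and 9.56 in YAP3d and 78.2, 31.7 and 15.5 in YAP7d, with complete overlap of YAP7d by YAP3d.

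Amotl1 was not detected in hepatocyte-like cells in any library. With 0 of 749193 UMIs, a limit of 3 counts allows a level of up to 4.004 CPM. Hepatocyte-like cells held 41 Amotl2 UMIs beside these 0, and endothelial-like cells held 2.73 Amotl1 UMIs for each Amotl2 UMI. Endothelial markers were seen with 98 UMIs in all in hepatocyte-like cells, 65 of them in YAP3d replicate 4, where 9 of 11 cells had at least 2. That library held 0 Amotl2 UMIs, and 39 of the 41 lay in cells with fewer than 2 endothelial marker UMIs. Beyond the fit that left out cells with 2 or more, the part of these markers in the Amotl2 level was not tested. Ctgf had 2, 1 and 2 UMIs in the YAP7d libraries and 0 in the other 6 libraries, Cyr61 had 11 UMIs in all, 8 of them in YAP7d replicate 1, and Ankrd1 had 1.

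In endothelial-like cells 3 targets, Amotl1, Amotl2 and Crim1, made up a smaller part of the UMIs in YAP7d. Amotl1 stood at 278 and 237 CPM in WT, at 281, 268, 321 and 266 CPM in YAP3d and at 122, 108 and 121 CPM in YAP7d. Amotl2 stood at 91.0 and 105 CPM, at 121, 83.1, 89.5 and 95.5 CPM and at 36.1, 31.6 and 36.8 CPM. Crim1 stood at 187 and 146 CPM, at 153, 148, 167 and 148 CPM and at 81.3, 81.2 and 74.7 CPM. For these 3 genes every YAP7d library lay below every WT and YAP3d library, while WT and YAP3d overlapped. The summed endothelial markers and the summed immediate early genes, described below, separated in the same way. The share of all genes that did so was not counted.

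Of the 9 targets, 6 had enough counts to be tested in endothelial-like cells, and Ankrd1, Ajuba and F3 had not. Between YAP7d and WT, 18.4% of 7467 genes passed in either direction, and of the 6 targets 4 fell and none rose. Their median log2 fold change was -1.06, beside -0.04 for all genes tested. Amotl1 fell by 1.08 on the log2 scale (SE 0.19, edgeR adjusted p 0.00105), Amotl2 by 1.42 (SE 0.25, adjusted p 0.00106) and Crim1 by 1.04 (SE 0.21, adjusted p 0.00241). Against YAP3d, where 17.1% of genes passed, the same 3 were lower, Amotl1 at -1.20 (SE 0.17, adjusted p 1.94e-04), Amotl2 at -1.38 (SE 0.24, adjusted p 8.89e-04) and Crim1 at -0.92 (SE 0.19, adjusted p 0.00375). Between YAP3d and WT no target passed, with 0% of all genes called by edgeR and none by DESeq2. In that comparison 144 genes and none of the targets had an unadjusted p under 0.05, and the median was -0.08 over the 6 targets beside 0.01 over all genes.

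**Figure D3:**
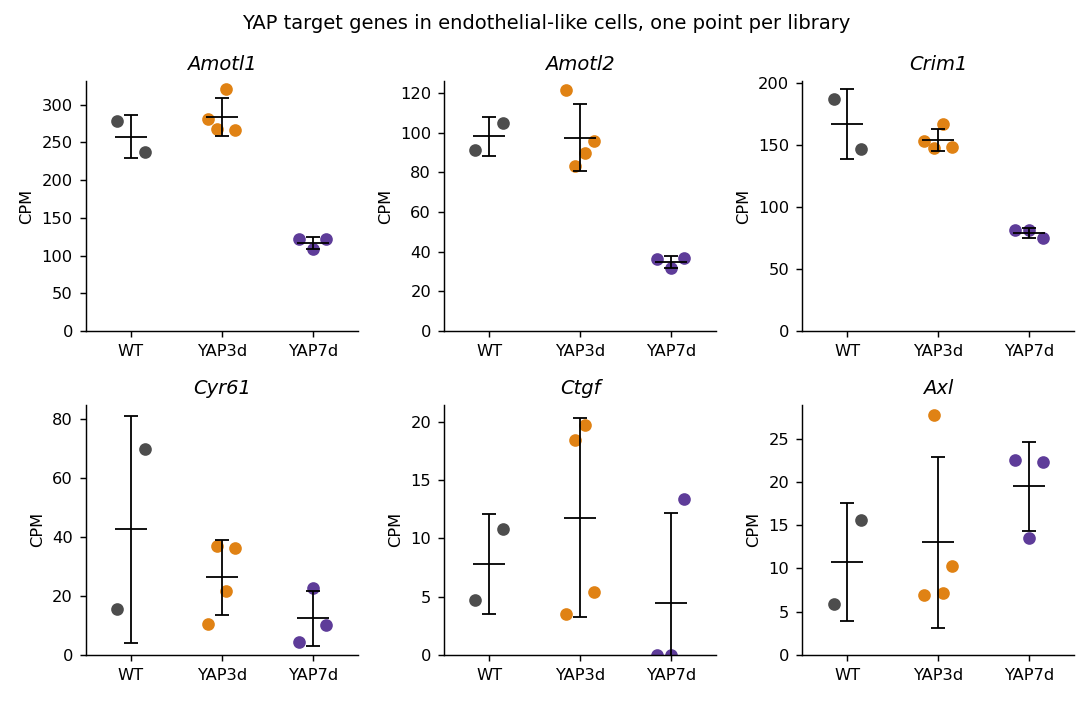
Levels (CPM) of the 6 tested targets in endothelial-like cells, 1 point per library, with the mean and SD of each group (2 WT, 4 YAP3d and 3 YAP7d libraries). For Amotl1, Amotl2 and Crim1 the 3 YAP7d points lie below all WT and YAP3d points, at 108 to 122, 31.6 to 36.8 and 74.7 to 81.3 CPM.

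The secreted targets and Axl were less settled in endothelial-like cells. Cyr61 stood at 15.4 and 69.6 CPM in WT, at 10.4, 36.9, 21.5 and 36.2 CPM in YAP3d and at 4.52, 22.5 and 10.03 CPM in YAP7d, with overlap of all 3 groups. Between YAP7d and WT it gave -1.94 on the log2 scale (SE 0.63, adjusted p 0.0437 by edgeR). The call was lost in 10 of 20 alternatives, and without WT replicate 2 the value was -0.35 (adjusted p 0.798). Ctgf stood at 4.73 and 10.8 CPM in WT, at 3.47, 18.5, 19.7 and 5.397 CPM in YAP3d and at 0, 0 and 13.4 CPM in YAP7d, and its fold change was -0.04 (SE 0.89, adjusted p 0.987). Axl had 5.91 and 15.6 CPM, then 6.94, 27.7, 7.16 and 10.3 CPM, then 22.6, 13.5 and 22.3 CPM (0.83, SE 0.54, adjusted p 0.321).

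Depth per cell, endothelial markers and immediate early genes moved with the lower values in YAP7d. Endothelial-like cells had 3064 to 4807 UMIs per cell in the WT and YAP3d libraries and 9226, 9642 and 14020 in YAP7d. The labels name both v2 and v3 reagent kits for every library, whereas the methods of the study give v2 for these livers, so that a difference of kit between libraries was not tested. The 12 endothelial markers themselves, all above 0 in every library, summed to 16960 and 18839 CPM in WT, 15470 to 17491 CPM in YAP3d and 7973 to 8576 CPM in YAP7d. The immediate early genes, with 11 to 13 of 13 above 0, summed to 7869 and 10176 CPM in WT, 6259 to 8737 CPM in YAP3d and 2570 to 2644 CPM in YAP7d. Macrophage markers, with 10 to 12 of 12 above 0, summed to 227 and 446 CPM, 135 to 904 CPM and 384 to 828 CPM, so that YAP7d lay within the YAP3d range. The part of the measures that moved in the lower levels was not tested beyond the ratios that follow.

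Per cell the 3 targets were not lower. Pooled over the libraries of WT, YAP3d and YAP7d, there were 1.01, 1.23 and 1.44 Amotl1 UMIs per endothelial-like cell, 0.411, 0.432 and 0.432 Amotl2 UMIs and 0.639, 0.679 and 0.928 Crim1 UMIs. By library the groups overlapped for Amotl1 and Amotl2, whereas Crim1 in YAP7d, at 0.75 to 1.05 UMIs per cell, lay above WT and YAP3d, at 0.572 to 0.713. Per 1000 UMIs of the endothelial markers there were 13.5, 16.0 and 14.1 Amotl1 UMIs, 8.58, 8.81 and 9.09 Crim1 UMIs and 5.52, 5.60 and 4.24 Amotl2 UMIs. On this last scale the Amotl2 values of the YAP7d libraries, 3.96 to 4.29, still lay below those of WT, 5.37 and 5.57, and of YAP3d, 5.34 to 7.37. The share of endothelial-like cells with an Amotl1 UMI was 58.0% in WT, 64.2% in YAP3d and 66.7% in YAP7d. After each cell was thinned to 1500 UMIs it was 30.5%, 32.7% and 16.0%, with 91, 72 and 0 shallower cells left out. In CPM the transcripts of these genes were a smaller fraction of a larger number of UMIs. The shallowest cell of a library, of any class, held 822 to 1734 UMIs in WT and YAP3d and 2443 to 4041 in YAP7d. Values per cell therefore compare unlike ranges of depth, and the part of this in them was not tested.

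**Figure D4:**
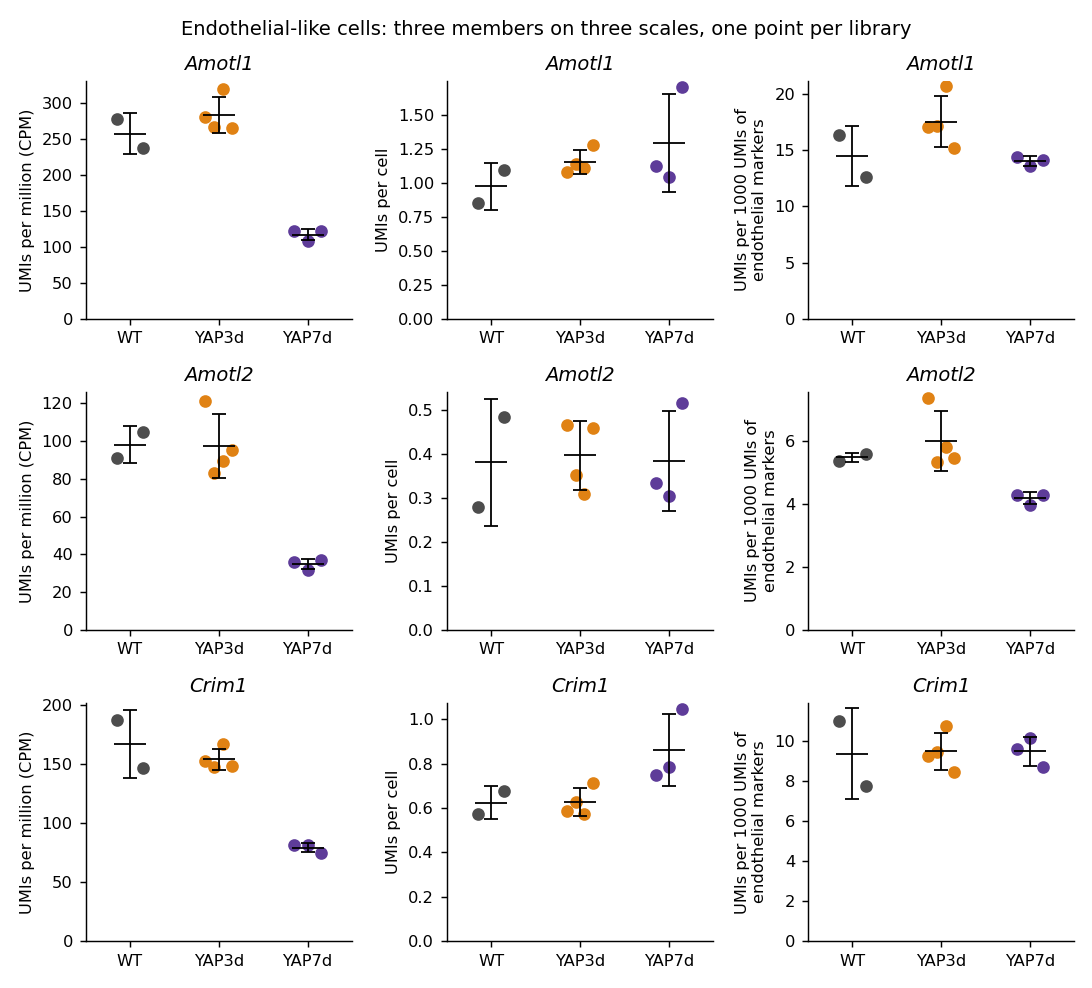
Amotl1, Amotl2 and Crim1 in endothelial-like cells on 3 scales, in CPM, per cell and per 1000 UMIs of the endothelial markers, 1 point per library with group mean and SD. The YAP7d points are lowest in CPM, overlap the other groups per cell for Amotl1 and Amotl2 (for Crim1 they lie above them), and for Amotl2 lie at 3.96 to 4.29 per 1000 marker UMIs, below WT and YAP3d.

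The endothelial-like cells of the groups also fell into different clusters. A cluster of 96 cells led by Ccl21a, Pcdh17, Mmrn1, Mest and Lyve1 held 91 of the 111 YAP7d endothelial-like cells, 1 WT cell and 4 YAP3d cells. In it, the YAP7d cells had 117 CPM of Amotl1, 33.3 CPM of Amotl2 and 69.1 CPM of Crim1. The 20 YAP7d cells outside it had 144 CPM of Amotl1 (exact Poisson 95% interval 88.0 to 222), 57.6 CPM of Amotl2 (24.9 to 114) and 144 CPM of Crim1 (88.0 to 222), beside 248, 101 and 157 CPM in WT cells outside it. Group and cluster cannot be told apart, and no fit without the cluster was made, since each YAP7d library kept fewer cells than the chosen minimum of 10.

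The libraries differed in 2 further ways, each checked within its levels. With 1 library per group of over 1000 cells, YAP7d replicate 3 against WT replicate 2 gave log2 differences of -0.96 for Amotl1, -1.49 for Amotl2 and -0.96 for Crim1, and the smaller libraries gave -1.27, -1.40 and -1.19. The pseudogene Gm10709 exceeded 100 CPM in YAP3d replicates 1 and 2 and in all YAP7d libraries, at 340 to 611 CPM, and lay at 3.62 to 11.2 CPM in the others, WT included. Within the libraries that had it, YAP7d against YAP3d gave -1.22 for Amotl1, -1.50 for Amotl2 and -0.92 for Crim1, without overlap. With a term for Gm10709, Amotl2 remained called against WT (-1.53, edgeR adjusted p 0.0394), whereas Amotl1 (-0.95, adjusted p 0.0930) and Crim1 (-0.94, adjusted p 0.145) did not, and all 3 remained called against YAP3d. Over all genes the calls fell with this term from 1376 to 233 against WT and from 1278 to 460 against YAP3d.

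Whether these changes were larger in endothelial-like than in myeloid-like cells was tested by an exact two-sided permutation of libraries. None of the 9 targets passed, but the design left little or no room to pass. For YAP7d against YAP3d the smallest possible p is 0.0286 before adjustment, which a single gene could not keep under the threshold once adjusted. Against WT it is 0.1, so that no gene could pass. Crim1 came closest against YAP3d with a difference of -0.83 (exact permutation p 0.0571, not adjusted), followed by Cyr61 at -1.74 (exact permutation p 0.114). For Amotl1 the difference was -0.71 (exact permutation p 0.2) and for Amotl2 -1.05 (exact permutation p 0.257).

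In myeloid-like cells Axl, Amotl1 and Crim1 had enough counts to be tested and none was called in any comparison. The background was 0.069% of 10143 genes between YAP7d and WT, 0.789% between YAP7d and YAP3d and 0% between YAP3d and WT, where 252 genes had an unadjusted p under 0.05 and DESeq2 called 5. DESeq2 called none of the 3 targets. Axl stood at 130 and 149 CPM in WT, at 90.6, 142, 144 and 113 CPM in YAP3d and at 160, 228 and 140 CPM in YAP7d. The YAP7d libraries lay at the upper end and overlapped both other groups. YAP7d differed by 0.33 on the log2 scale from WT (SE 0.26, adjusted p 0.607 by edgeR) and by 0.55 from YAP3d (SE 0.21, adjusted p 0.216, unadjusted p 0.0230).

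The sign of the Axl difference turned when macrophage-like cells were taken alone. There Axl stood at 393 and 340 CPM in WT, at 371, 254, 360 and 451 CPM in YAP3d and at 238, 269 and 238 CPM in YAP7d. The YAP7d libraries lay below both WT libraries and overlapped YAP3d through its replicate 2. Group means were 366.5 ± 37.6 CPM (SD, n = 2), 359.0 ± 81.1 CPM (n = 4) and 248.2 ± 17.98 CPM (n = 3), with log2 fold changes of -0.58 against WT (edgeR adjusted p 0.321) and -0.48 against YAP3d (adjusted p 0.452), neither past the threshold. Macrophage-like cells gave 32.9 to 38.7% of the myeloid-like UMIs in WT, 21.2 to 40.0% in YAP3d and 51.4 to 83.8% in YAP7d.

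Among the macrophage-like clusters the Axl level varied. A cluster of 127 cells led by C6, Clec4f and Vsig4 had 565 CPM and held 57 WT, 70 YAP3d and 0 YAP7d cells. A cluster of 482 cells led by Cd5l, Fabp7 and Marco, with 380 YAP7d cells, had 280 CPM. Both clusters carried Kupffer cell genes, with Clec4f at 4221 and 2667 CPM and Timd4 at 513 and 483 CPM. A cluster of 569 cells led by the complement genes C1qa, C1qb and C1qc, with 493 YAP7d cells, had 221 CPM. Dendritic-like cells were split too, with 56.9 CPM in a cluster led by Cd209a and 8.86 CPM in that led by Xcr1. A macrophage-like cluster of 22 cells led by Prg4 had 10.1 CPM of Axl with 40.3 CPM each of Crim1 and F3.

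**Figure D5:**
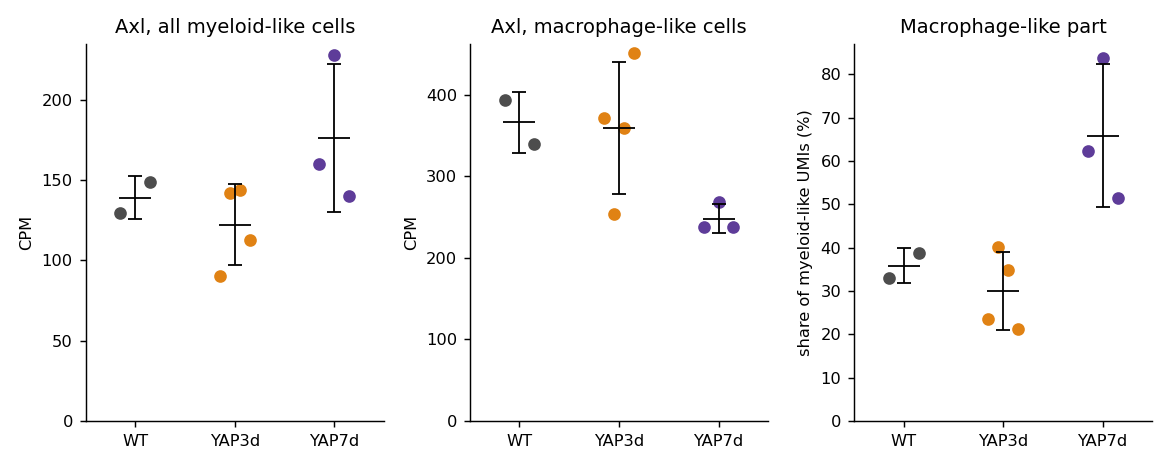
Axl levels (CPM) in myeloid-like and in macrophage-like cells, and the macrophage-like share of myeloid-like UMIs (%), 1 point per library with group mean and SD. In macrophage-like cells the YAP7d libraries lie at 238 to 269 CPM, below WT at 340 and 393 CPM, while their share of UMIs lies at 51.4 to 83.8%, above WT and YAP3d.

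A further 15 genes of the YAP signature were read in the same fits. In endothelial-like cells 6 were tested, and 2 fell between WT and YAP7d and none rose, beside the 18.4% of all genes. These were Lats2, a Hippo kinase and a feedback target of YAP (-1.26, SE 0.29, edgeR adjusted p 0.00643), and Ccdc80, a secreted matrix protein (-1.11, SE 0.23, adjusted p 0.00350). The same pair fell between YAP3d and YAP7d, Lats2 at -1.11 (adjusted p 0.0111) and Ccdc80 at -1.17 (adjusted p 0.00147), and none passed between WT and YAP3d. The median of the 6 was -0.95 against WT and -0.92 against YAP3d. In myeloid-like cells 8 were tested and none was called by edgeR, with 2, 0 and 2 at an unadjusted p under 0.05 for YAP7d against WT, YAP3d against WT and YAP7d against YAP3d (14.5%, 2.48% and 16.3% of all genes), and medians of -0.47, -0.22 and -0.39. None of the 15 was tested in hepatocyte-like cells.

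The genes whose levels followed each target most closely were found over 75 library-by-class sums of 12 classes, by Pearson's r of log2(CPM + 10), among genes with at least 300 UMIs in all. The sums share libraries and depth, and r is a description. Biliary-like cells held 95.6% of the Ankrd1 UMIs, and only 2 of the sums are of these cells. Ankrd1 was followed by Tspan8 (0.981), Ces1d (0.93) and the duct keratin Krt19 (0.858). Ctgf and Cyr61 followed each other (0.858). Among the genes with enough UMIs to be searched, Krt19 came first for Cyr61 (0.848) and for F3 (0.876). Krt19 and Tspan8 are among the markers that named biliary-like cells, whose 2 sums were also high in Cyr61 and F3. Ajuba was closest to Krt8 (0.869) and Axl to Lpl (0.885) and Lrp1 (0.879). Amotl1 was closest to Flrt1 (0.961) and Timp3 (0.959), Amotl2 to Sdpr (0.916), which encodes a caveolar protein, and Crim1 to the thrombin receptor F2r (0.884) and the integrin Itga1 (0.88).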

How the data were processed

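Single-cell 3' RNA-seq was made from 9 liver libraries (2 WT, 4 YAP3d, 3 YAP7d). The authors aligned reads to mm10 and counted UMIs with Cell Ranger, and the deposited table holds these raw UMI counts per gene and cell, without normalization. A minimum of 200 genes per cell removed 35 cells. Cells were clustered with scanpy 1.11.5 (2426 variable genes without the targets, 30 principal components, 15 neighbours, Leiden resolution 1, seed 0), which gave 25 clusters. Clusters were named from fixed markers, 147 of 149 of which were in the table. Scrublet called 60 doublets (0.704%), which were kept. Counts were summed per library and class with at least 10 cells, filtered with filterByExpr, scaled by TMM and tested in edgeR 4.0.16 (quasi-likelihood, all groups together, R 4.3.3) at a Benjamini-Hochberg adjusted p of 0.05 over all genes tested. DESeq2 1.42.0 was an alternative. Permutation tests were exact (scipy 1.17.1). The test between endothelial-like and myeloid-like cells was adjusted over all genes in place of the 9 targets as planned. The edgeR fit and the permutation tests were tested on simulated data. All 9 targets, Yap1 and the called genes of the signature list were named, with the 3 genes most like each target. The members, gene lists and tests were chosen with earlier results of these data known. Depth was 3190.5 to 11471.5 UMIs per cell (library medians), which limits low genes, and PCR copies were collapsed by UMI.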

Additional observations from a re-analysis of the deposited data

Results flagged for a closer look

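In the 4 YAP3d libraries, 18 sets of values (each target in endothelial-like and in myeloid-like cells) were searched for a library far from the others by Dixon's criterion at 95% (critical value 0.829 for 4 values), by which chance marks about 1 in 20 sets. Axl in endothelial-like cells stood at 27.7 CPM in YAP3d replicate 2, from 6 UMIs in 51 cells, beside 6.94, 7.16 and 10.3 CPM in the other libraries. That library also had the highest level of macrophage markers in its endothelial-like cells, 904 CPM, and their part in the Axl value was not tested. Ctgf in myeloid-like cells stood at 0.63 CPM in YAP3d replicate 4 and Ankrd1 at 0.315 CPM, each beside 0 in the other 3 libraries. These are 2 Ctgf UMIs and 1 Ankrd1 UMI in the 361 myeloid-like cells of the library with the most cells of its group. With the other libraries at 0, any value above 0 is marked, and the limits that a count of 0 allows there (1.65 to 9.37 CPM, 3 counts per library) lie above both values.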

How the results depend on the processing

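Called targets in endothelial-like cells numbered 3 to 4 when single libraries were left out for YAP7d against WT, 3 in each case against YAP3d and 0 between YAP3d and WT. The counts over all genes in these fits lay within the ranges given below. A term for Gm10709 left 1 against WT (Amotl2), beside 233 called over all genes in place of 1376. Cyr61 was called in 10 of 20 alternatives against WT, and against YAP3d only without a filter on low counts (-1.29, adjusted p 0.0357). In hepatocyte-like cells the fit without a filter called 1 target (Amotl2), and 0 to 1 when libraries were also left out. In that fit the uncalled Ajuba value (0.27) turned to -0.18 with at least 5 cells a library and -0.27 without cells that held endothelial marker UMIs, and when libraries were left out it ranged from -0.69 to 0.72, with -0.38 without YAP3d replicate 4. The fits that combine no filter with another change, the exclusion of the Prg4 cluster and the pooled biliary-like and hepatocyte-like levels without single libraries were chosen after seeing the data. In myeloid-like cells no alternative called a target, and 5 to 6 targets differed between endothelial-like and myeloid-like cells over 11 alternatives (adjusted over all genes, of which 23.1% to 33.3% differed).

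Counts over all genes moved more. DESeq2 called 208 against 7 genes in myeloid-like cells for YAP7d against WT, 332 against 80 for YAP7d against YAP3d, 5 against 0 for YAP3d against WT, and 81 against 53 in hepatocyte-like cells. Over all alternatives the ranges were 233 to 1950 and 460 to 1771 in endothelial-like cells against WT and YAP3d (0 to 40 for YAP3d against WT), 0 to 735, 0 to 963 and 0 to 61 in myeloid-like cells, and 0 to 213 in hepatocyte-like cells. The lowest counts of YAP7d came with the Gm10709 term. The causes were not tested.

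Same-numbered libraries did not deviate together (correlations from -0.165 to 0.129), so the numbers do not pair them. With a replicate block, 4, 0 and 3 targets were called in endothelial-like cells (YAP7d against WT, YAP3d against WT, YAP7d against YAP3d), and 0 in myeloid-like and hepatocyte-like cells. The counts over all genes with the block lay within the ranges given above. The block turned the sign of uncalled values, Axl to 0.18 and Ctgf to -0.14 in endothelial-like cells for YAP3d against WT, and Crim1 in myeloid-like cells to 0.14 for YAP7d against WT and 0.24 for YAP7d against YAP3d.

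All other values that turned sign were uncalled too. In endothelial-like cells, Axl was 0.006871 with DESeq2 (YAP3d against WT), and Ctgf was 0.0016197 with a term for libraries over 1000 cells and 0.0334 without doublets (YAP7d against WT). In myeloid-like cells, Crim1 against WT was 0.0126 with DESeq2, 0.22 with Gm10709 and 0.31 without the Prg4 cluster for YAP3d, and 0.44 and 0.22 with the last pair for YAP7d, and with Gm10709 it was 0.23 for YAP7d against YAP3d. Amotl1 was 0.0182 for YAP7d and 0.0678 for YAP3d with Gm10709, and 0.21 for YAP3d with classes set per cell. Axl was -0.58 in macrophage-like and -0.35 in monocyte-like cells alone against WT, -0.48 and -0.82 against YAP3d, and 0.47 in monocyte-like cells for YAP3d against WT. Leaving out single libraries gave, for YAP3d against WT in endothelial-like cells, -0.49 to 0.87 for Axl, -0.31 to 0.0599 for Crim1, -1.28 to 0.85 for Cyr61, -0.0044941 to 0.25 for Amotl1 and -0.13 to 0.058 for Amotl2. For Ctgf it gave values turned to 0.00675 to 0.34 for YAP7d against WT and -0.35 to 0.15 against YAP3d. In myeloid-like cells Crim1 ranged from -0.41 to 1.76 (YAP3d against WT), -0.56 to 1.62 (YAP7d against WT) and -0.48 to 0.16 (YAP7d against YAP3d), and Amotl1 from -0.94 to 0.71 (YAP3d against WT). Depth limits Ctgf, Ankrd1, Ajuba and F3, which few UMIs carry outside biliary-like cells.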
